A study of Mus musculus with 2 samples.

Results

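Lymphatic endothelial cells of the outer wall, or ceiling, of the subcapsular sinus were examined in single-cell RNA sequencing of mandibular nodes of mice, lymph nodes that drain the head. A barcode was chosen by its UMI counts of 8 genes and counted as a ceiling cell when it had at least 500 detected genes, at most 10% mitochondrial UMIs, at least 1 UMI of Prox1, at least 1 UMI of Ackr4, at most 2 UMIs of Ly6c1 plus Flt1, at most 1 UMI of Madcam1 plus Coch, and 0 UMIs of Marco and of Igfbp5. A UMI marks 1 captured RNA molecule. This gave 1607 ceiling cells of 22611 barcodes that passed the gene and mitochondrial limits, and of 27718 barcodes in all. They were 730 cells of the SAH library and 877 cells of the sham library. SAH is subarachnoid haemorrhage, bleeding into the space around the brain, which was induced here by infusing autologous blood; the other group had a sham operation. Nodes were taken at 24 h from 20 mice in each group and pooled into 1 library per group. Strain, sex and age are not given in the sources used here. In both groups cells carrying CD45 were depleted and cells bound by antibodies to CD31 or podoplanin were collected on beads, so the number of cells of a type reflects that selection as well as the node.

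The subcapsular sinus is the first space that afferent lymph reaches in a lymph node, and it has a ceiling under the capsule and a floor that faces the lymphoid tissue. Ceiling cells are known for Ackr4, an atypical receptor that takes up the chemokines CCL19 and CCL21 and so shapes their gradient into the node. Floor cells carry Madcam1, an adhesion molecule, and Coch, a secreted protein, while cells of deeper sinuses carry scavenger receptors such as Marco and Lyve1. Prox1 is the transcription factor that sets lymphatic identity, and Ly6c1 and Flt1 mark blood endothelium.

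With 1 library per group nothing here could be checked in a replicate. No test was made, and each comparison is between 2 libraries, not between conditions. Bracketed ranges are 95% intervals, exact for folds and shares, that cover counting error only. The SAH library held 78497486 UMIs and the sham library 72860197 UMIs. Ceiling cells held 6063169 UMIs in the SAH and 6127474 UMIs in the sham library, with medians of 7548 and 6388 UMIs, 2856 and 2550 genes, and 3.56% and 4.48% mitochondrial UMIs per SAH and sham cell. The labels name the collected cells lymphatic endothelial, but barcodes with Prox1 and at most 2 UMIs of Ly6c1 plus Flt1 were 1853 of 11454 kept in the SAH and 1880 of 11157 in the sham library, and blood endothelial barcodes (Prox1 0, Ly6c1 plus Flt1 at least 3) were 6495 and 6299. Across the libraries 76 barcode sequences occurred in both, and 0 of these were ceiling cells in both. A doublet caller marked 31 SAH and 30 sham ceiling cells, which were kept.

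The label was first read against markers. The level of a gene is its UMIs summed over the cells of a group in a library, given per 1000000 UMIs of that group (CPM). The rule's own genes stood at 995 CPM in SAH and 857 CPM in sham ceiling cells for Ackr4, with medians of 7 and 5 UMIs per cell, and at 641 and 730 CPM for Prox1, with a median of 4 UMIs in each library. These values chose the cells and are given as description only. Of the markers that were not in the rule, Cd36, a fatty acid and thrombospondin receptor, stood at 1360 CPM in SAH and 1215 CPM in sham ceiling cells. Gdf10, a ligand of the BMP family, stood at 622 CPM in SAH and 836 CPM in sham cells, Btnl9, a butyrophilin-like surface protein, at 316 and 244 CPM, and Klrb1f, a lectin-like receptor, at 208 and 228 CPM. All 4 were thus present in both libraries, and their summed level was 2506 CPM in SAH and 2523 CPM in sham ceiling cells. It was 45.0 CPM in SAH and 42.0 CPM in sham floor cells (Prox1 with at least 2 UMIs of Madcam1 plus Coch, 257 and 313 cells), and 167 and 190 CPM in Marco-type cells (Prox1 with Marco, 211 and 80 cells).

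Cells with a UMI gave a like picture per cell, but the gap to blood endothelium was narrow for Btnl9. With every cell thinned to 2000 UMIs, which left out 4 SAH and 9 sham ceiling cells, Klrb1f had a UMI in 25.3% [22.2, 28.7] of SAH and 30.2% [27.1, 33.4] of sham ceiling cells. Blood endothelial barcodes, with medians of 4674 and 4557 UMIs, had one in 0.394% and 0.209%. Unthinned, the shares with Klrb1f were 52.7% and 53.8% in SAH and sham ceiling cells and 0.785% and 0.587% in blood endothelium. Gdf10 had a UMI in 65.2% [61.6, 68.6] of SAH and 75.1% [72.1, 78.0] of sham ceiling cells, against 2.93% and 2.64% in blood endothelium. In Marco-type cells, the closer lymphatic group, Gdf10 was in 13.4% [9, 18.8] of SAH and 21.1% [12.5, 31.9] of sham cells. Unthinned, the shares were 90.3% and 95.4% in SAH and sham ceiling cells, 36.5% and 37.5% in Marco-type cells and 6.36% and 5% in blood endothelium. Cd36 and Btnl9 are shared with blood endothelium, and after thinning Cd36 had a UMI in 78.7% of SAH and 79.4% of sham ceiling cells, against 32.3% and 15.8% of blood endothelial cells. Unthinned these were 93.3% and 95.3% of ceiling and 46.7% and 24.5% of blood endothelial cells. Btnl9 had a UMI in 43% of thinned SAH and 35.3% of thinned sham ceiling cells, against 30.1% and 25.9% of blood endothelial cells. Without thinning the Btnl9 shares were 75.5% and 64.7% of ceiling and 45.3% and 40.6% of blood endothelial cells.

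The genes that led ceiling cells over both floor and Marco-type cells, with the rule's genes left out, included Klrb1f, Cd36 and Btnl9 of the marker list. Because the rule separates these groups by measured genes, the ratios are description with no test, and a floor or Marco-type level under 3 UMIs was set to 3 UMIs. The smallest of the 4 ratios, of ceiling over floor and over Marco-type cells in each library, was 33.8 for Klrb1f, 26.2 for Prss23, a serine protease, 22.3 for Dkk2, a secreted modulator of WNT signalling, and 21.8 for Cd36. Prss23 stood at 634 CPM in SAH and 1069 CPM in sham ceiling cells, with 24.2 and 25.6 CPM in floor and 23 and 29.9 CPM in Marco-type cells. Ackr3, an atypical receptor of CXCL12, stood at 161 and 329 CPM in SAH and sham ceiling cells, and at 18.9 CPM or less in floor and Marco-type cells of either library. The other leading genes were Pgm5, Btnl9, Cdh13 (a cadherin), Fbln5 (an elastic fibre protein), Ntn1 (the guidance cue netrin), Podxl, Mfsd4, Cd93, Bmp4 (a BMP ligand) and Fabp4 (a fatty acid carrier), with smallest ratios between 7.31 and 20.5. Podxl, Cd93 and Fabp4 are shared with blood endothelium, where they stood at 470, 500 and 3472 CPM in the SAH library and at 473, 585 and 2863 CPM in the sham library. In SAH and sham blood endothelium, Cdh13 stood at 89.7 and 88.1 CPM and Btnl9 at 219 and 165 CPM. Prss23 stood there at 296 and 266 CPM, Ackr3 at 52.9 and 110 CPM and Fbln5 at 44.8 and 41.3 CPM, so these are shared too. In mm10 coordinates Ackr4 (ENSMUSG00000079355) lies on chromosome 9 from 104084157 to 104126933, Klrb1f (ENSMUSG00000030154) on chromosome 6 from 129045901 to 129057464, and Dkk2 (ENSMUSG00000028031) on chromosome 3 from 132085292 to 132180304 (each protein-coding).

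**Figure D1:**
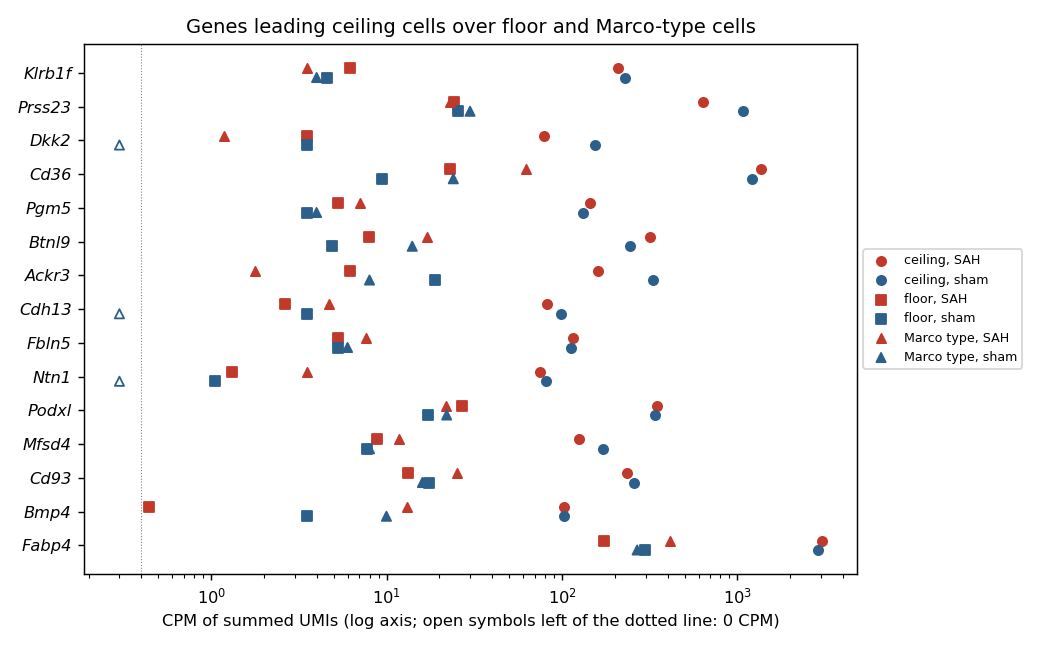
Levels in CPM on a log axis of the 15 genes that lead ceiling cells over floor and Marco-type cells, from UMIs summed per cell group (symbol shape) and library (SAH red, sham blue; open symbols: 0 CPM). In each library the ceiling level lies to the right of both other groups for every gene shown, with a smallest ratio of 7.31 for Fabp4, while Prss23, Dkk2 and Ackr3 lie lower in SAH than in sham ceiling cells.

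Cells just inside and outside the limits were described next. Members with only 1 UMI of Ackr4 numbered 82 in the SAH and 93 in the sham library. In the SAH library these had 1251 CPM of Lyve1, 321 CPM of Gdf10 and 305 CPM of Itga2b, against 208, 651 and 138 CPM in the 648 members with 2 or more UMIs. In the sham library the corresponding values were 285, 692 and 68.8 CPM, against 133, 849 and 20.9 CPM in 784 members. The barcodes that failed on Ackr4 alone, 281 SAH and 363 sham cells, had 2338 and 1645 CPM of Lyve1 and 229 and 253 CPM of Cd36. Members with 1 UMI of Ackr4 thus had more of the sinus markers Lyve1 and Itga2b and less of the ceiling marker Gdf10 in each library, and for Lyve1 and Gdf10 by a wider margin in the SAH library. Barcodes that failed on Marco alone numbered 79 in the SAH and 26 in the sham library, 54 and 17 of them by 1 UMI, and those 54 and 17 had 1343 and 653 CPM of Cd36. Failures on a single other limit were 221 SAH and 166 sham barcodes for Ly6c1 plus Flt1, 93 and 98 for Prox1, 87 and 74 for Igfbp5, and 33 and 25 for Madcam1 plus Coch.

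By this rule, ceiling cells made up a smaller share of lymphatic barcodes in the SAH library. They were 730 of 1853 lymphatic barcodes in the SAH library (39.4% [37.2, 41.7]) and 877 of 1880 in the sham library (46.6% [44.4, 48.9]), a difference of -7.25 percentage points [-10.4, -4.04]. Of all kept barcodes they were 6.37% and 7.86%. Floor cells were 13.9% of SAH and 16.6% of sham lymphatic barcodes and Marco-type cells 11.4% and 4.26%, so only the Marco type had a larger share in the SAH library among these 3 groups. Without the limits on Marco, Madcam1 plus Coch and Igfbp5 the ceiling group was 51.4% of SAH and 53.8% of sham lymphatic barcodes. That is a difference of -2.4 points, for which no interval is given, so the size of the difference depends on these limits. With the rule applied to barcodes thinned to 3000 UMIs, since SAH cells were deeper, the difference was -5.75 points. Bead selection and dissociation cannot be told apart from the groups.

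The main comparison asked how ceiling cells of the SAH library differed from those of the sham library. Interferon-stimulated, MHC class I and complement genes were higher in the SAH library, and immediate early genes were lower. The medians of these lists went the same way in floor and Marco-type cells, as given below. Most ceiling genes lay within 1.5-fold: of 3643 genes with at least 50 CPM in 1 library, 221 (6.07%) were at least 1.5-fold higher in the SAH library and 87 (2.39%) at least 1.5-fold lower, around a median log2 fold of -0.01. Of 8702 genes with at least 10 CPM, the limit used for gene lists, 606 (6.96%) were higher and 274 (3.15%) lower by that size, around a median of 0.02. These shares are the background for the list counts below. Folds divide SAH CPM by sham CPM.

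**Figure D2:**
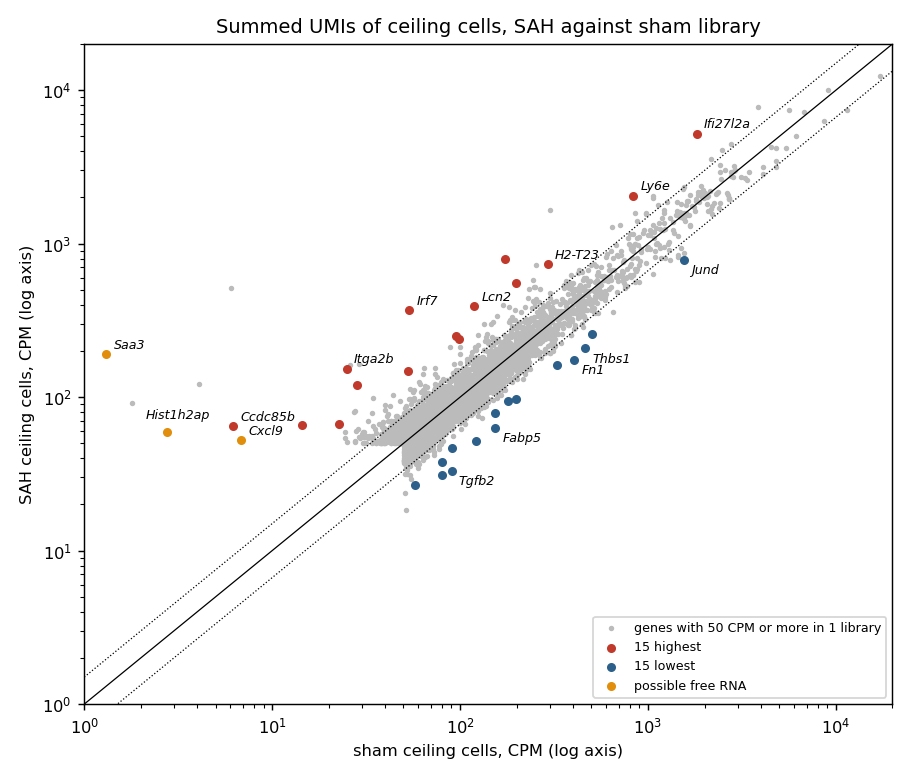
Level in CPM of each gene with at least 50 CPM in 1 library, in SAH (vertical, log axis) against sham ceiling cells (horizontal, log axis), with equality as a solid line and 1.5-fold as dotted lines. Irf7 lies at 370 against 53.7 CPM and Tgfb2 at 33.2 against 90.1 CPM; the grey points far above the lines include Hbb-bs, a haemoglobin gene, at 516 against 6.04 CPM, which the naming rule left out.

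Interferon-stimulated genes are the antiviral programme that cells switch on when interferons bind their receptors. Of 36 genes in the list, 32 had at least 10 CPM in ceiling cells, and 26 of these were higher in the SAH library by 1.5-fold or more while 0 were as far below. Their median log2 fold was 0.90, where 6.96% and 3.15% of all genes at that level were higher and lower. Irf7, which encodes the factor that drives the late wave of type I interferon genes, had the largest fold of the list, with 370 CPM in SAH and 53.7 CPM in sham ceiling cells (6.89-fold [6.13, 7.76]). It lies on chromosome 7 from 141262706 to 141266481 on the minus strand (mm10, protein-coding). Oas1a, a sensor of double-stranded RNA, was at 18.8 CPM in SAH and 2.77 CPM in sham cells (6.78-fold [4.05, 12.0]), and Zbp1, a sensor of Z-form nucleic acid, at 148 and 53.0 CPM (2.80-fold [2.46, 3.18]). The induced genes with the most UMIs differed too: Ifi27l2a stood at 5210 CPM in SAH and 1819 CPM in sham cells (2.86-fold [2.80, 2.93]) and Ifitm3, a membrane protein that blocks viral entry, at 7786 and 3844 CPM (2.03-fold [1.99, 2.06]).

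Other members followed by role. Among the signalling factors, Irf9 stood at 103 CPM in SAH and 79.0 CPM in sham cells (1.31-fold [1.16, 1.48]) and Stat2 at 65.1 and 47.0 CPM (1.39-fold [1.19, 1.62]), both under 1.5-fold. Of the RNA sensors, Ddx58 was 1.42-fold [1.26, 1.60], Ifih1 1.41-fold [1.20, 1.66] and Dhx58 1.12-fold [0.909, 1.38], all under 1.5-fold. Among effectors, Isg15, a ubiquitin-like modifier, stood at 396 CPM in SAH and 170 CPM in sham cells (2.33-fold [2.16, 2.50]), and Ifit1, which binds viral RNA, at 103 and 44.2 CPM (2.33-fold [2.02, 2.70]). Of the GTPases that interferon-gamma also induces, Igtp was 1.97-fold [1.71, 2.28], Irgm1 1.74-fold [1.53, 1.98], Gbp3 2.07-fold [1.77, 2.42] and Ifi47 1.24-fold [1.12, 1.37]. Rsad2, which encodes viperin, was 2.43-fold [1.82, 3.25], but 10 cells held 54.2% of its SAH and 85.7% of its sham UMIs. For Irf7 the 10 highest cells held 8.16% and 14.9%, so its difference did not rest on a few cells. Ifit3 and Ifit3b are near-identical copies, and their separate values are uncertain.

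The promoters of these genes are shown because many share the element that interferon-activated factors bind. RefSeq windows of GRCm38.p6, from 250 bases before to 50 bases after a gene's start, were searched on both strands for GAAANNGAAA, a short form of the interferon-stimulated response element. Of the 32 interferon list members with at least 10 CPM, 25 had a window, and it was in 17 of these (68%), against 1079 of 27025 genes with a window (3.99%). It was in 5 of 17 MHC class I genes, 1 of 5 complement genes and 1 of 18 immediate early genes with a window and at least 10 CPM. The window of Irf7 did not hold these letters. Matches are printed below in capitals, where overlapping matches run together, and a match is a description of the letters and no evidence of binding.
Oas1a, chr5:120907476-120907775, minus strand: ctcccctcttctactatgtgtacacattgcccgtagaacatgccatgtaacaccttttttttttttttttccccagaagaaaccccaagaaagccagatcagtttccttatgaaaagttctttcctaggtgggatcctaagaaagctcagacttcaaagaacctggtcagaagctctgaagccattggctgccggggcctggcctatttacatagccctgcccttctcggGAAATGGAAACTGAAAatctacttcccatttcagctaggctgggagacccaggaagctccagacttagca
Isg15, chr4:156200769-156201068, minus strand: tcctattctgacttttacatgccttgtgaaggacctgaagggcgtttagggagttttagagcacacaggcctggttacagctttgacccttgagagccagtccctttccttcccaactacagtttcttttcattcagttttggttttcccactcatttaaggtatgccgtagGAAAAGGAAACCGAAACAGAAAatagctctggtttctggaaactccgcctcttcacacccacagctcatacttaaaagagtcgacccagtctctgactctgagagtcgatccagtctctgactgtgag
Ifit1, chr19:34640639-34640938, plus strand: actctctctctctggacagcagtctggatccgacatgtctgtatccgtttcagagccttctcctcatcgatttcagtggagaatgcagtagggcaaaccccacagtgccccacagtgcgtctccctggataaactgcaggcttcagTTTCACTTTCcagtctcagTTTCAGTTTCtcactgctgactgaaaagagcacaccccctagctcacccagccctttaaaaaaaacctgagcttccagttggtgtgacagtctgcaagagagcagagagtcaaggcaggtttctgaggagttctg
Bst2, chr8:71537423-71537722, minus strand: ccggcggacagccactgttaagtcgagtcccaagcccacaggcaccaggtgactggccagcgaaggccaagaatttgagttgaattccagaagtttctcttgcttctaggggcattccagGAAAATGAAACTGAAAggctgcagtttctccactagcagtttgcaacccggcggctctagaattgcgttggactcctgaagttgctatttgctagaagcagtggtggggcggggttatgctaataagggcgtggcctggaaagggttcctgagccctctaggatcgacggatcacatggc
In Oas1a, Isg15 and Bst2 the matches overlap on the strand shown, and in Ifit1 2 separate matches lie on the opposite strand. Levels in SAH and sham ceiling cells were 18.8 and 2.77 CPM for Oas1a, 396 and 170 CPM for Isg15, 103 and 44.2 CPM for Ifit1, and 1398 and 877 CPM for Bst2, a protein that tethers budding virus.

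The difference was spread over the cells. With every cell thinned to 2000 UMIs, the list summed to a median of 33 UMIs per SAH ceiling cell (interquartile range 22 to 46) and 15 UMIs per sham ceiling cell (11 to 21), and 5.41% of sham cells reached the SAH median. Without Ifitm3, Ifi27l2a and Bst2, a choice made after their levels were seen, the medians were 6 and 3 UMIs, and 19.5% of sham cells reached 6. Irf7 had a UMI in 44.9% [41.2, 48.6] of SAH and 9.79% [7.90, 12.0] of sham ceiling cells, and unthinned in 77.3% and 24.5%. It had a UMI in 51.8% of SAH and 18.2% of sham blood endothelial cells after thinning (71.5% and 35.1% unthinned), so blood endothelium is no background for this gene. Floor cells summed to medians of 27 and 14 UMIs and Marco-type cells to 28 and 10 UMIs in the SAH and sham libraries. Of the list 16 of 33 measured members in floor cells and 27 of 34 in Marco-type cells were at least 1.5-fold higher, with median log2 folds of 0.57 and 0.96, where 9.87% and 15.1% of all genes at 10 CPM were higher by that size. The 3 groups share the 2 libraries, and whether the folds differ between them was not tested.

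**Figure D3:**
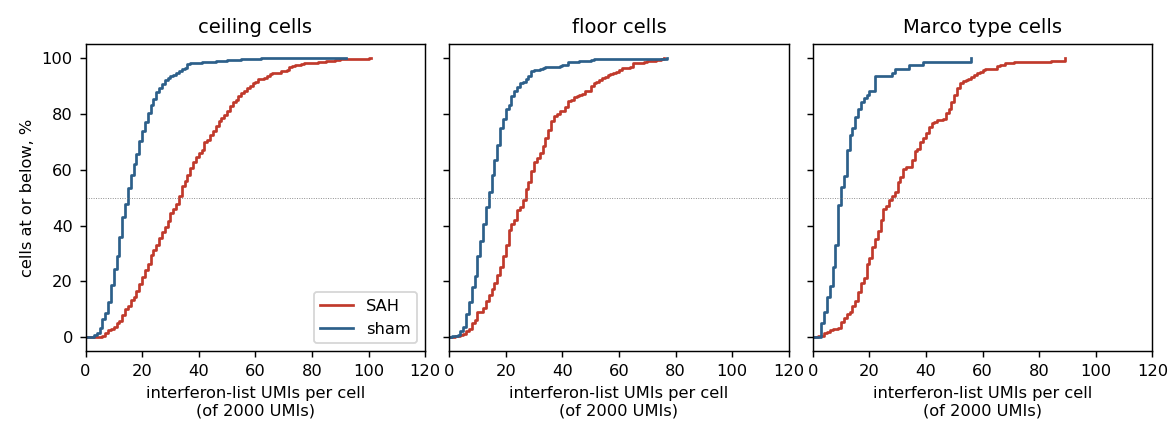
Cumulative share of cells (vertical, percent) by the number of interferon-list UMIs per cell after thinning to 2000 UMIs (horizontal), for ceiling, floor and Marco-type cells of the SAH (red) and sham (blue) libraries. In ceiling cells the SAH curve lies to the right of the sham curve at the medians of 33 and 15 UMIs.

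MHC class I genes, which load peptides and present them to CD8 T cells, were mostly higher in SAH ceiling cells. Of 20 members, all at 10 CPM or more, 11 were higher by 1.5-fold or more and 0 were as far below, and the median log2 fold was 0.59. Of the heavy chains, H2-T23, the gene of the nonclassical Qa-1 molecule, stood at 736 CPM in SAH and 293 CPM in sham cells (2.51-fold [2.38, 2.65]) and H2-D1 at 3544 and 2152 CPM (1.65-fold [1.61, 1.68]). H2-K1 went the other way, at 4225 CPM in SAH and 4776 CPM in sham cells (0.885-fold [0.870, 0.900]), under the 1.5-fold limit. B2m, the shared light chain, stood at 4492 and 2765 CPM (1.62-fold [1.59, 1.66]). Psmb8, a subunit of the immunoproteasome, stood at 523 and 248 CPM (2.11-fold [1.99, 2.25]), and Psme1, an activator of the proteasome, at 503 and 266 CPM (1.89-fold [1.78, 2.01]), whereas Psmb9 was 1.25-fold [1.15, 1.36] and the peptide transporter genes Tap1 and Tap2 were 1.41-fold [1.27, 1.57] and 1.06-fold [0.976, 1.14]. Near-identical H2 copies can split UMIs, which leaves the value of any one H2 gene uncertain. Per cell thinned to 2000 UMIs the list summed to medians of 34 UMIs in SAH and 26 UMIs in sham ceiling cells. In floor cells the median log2 fold of the list was 0.35 and in Marco-type cells 0.61.

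The complement list holds components of a plasma defence cascade and the proteins that hold it in check. Its median log2 fold was 1.00, and 7 of 10 measured members were past 1.5-fold higher in the SAH library and 0 past it lower. Of the components, C3 stood at 725 CPM in SAH and 254 CPM in sham cells (2.85-fold [2.69, 3.02]), C4b at 98.0 and 34.4 CPM (2.85-fold [2.43, 3.34]), C2 at 212 and 88.0 CPM (2.41-fold [2.17, 2.67]), and Cfb, a component of the alternative pathway, at 142 and 73.6 CPM (1.92-fold [1.72, 2.16]). Among regulators, Serping1, which blocks the C1 proteases, stood at 219 CPM in SAH and 125 CPM in sham cells (1.75-fold [1.60, 1.92]). The membrane regulators Cd55 and Cd59a were 1.28-fold [1.24, 1.33] and 1.38-fold [1.23, 1.54], under 1.5-fold. C3 and C4b are made in quantity by fibroblastic cells of the node (Pdgfrb-positive barcodes), where C3 stood at 7459 CPM in the SAH and 5844 CPM in the sham library. The ceiling level of C3 was 9.71% of that in the SAH and 4.35% in the sham library, and of C4b 6.07% and 3.27%. For Dcn, a fibroblast gene, the same percentages were 5.23% and 3.86%, and for Col1a1 5.67% and 3.04%. The part of free RNA in C3 and C4b was not tested. In floor cells the median log2 fold of the complement list was 0.42 and in Marco-type cells 0.67.

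**Figure D4:**
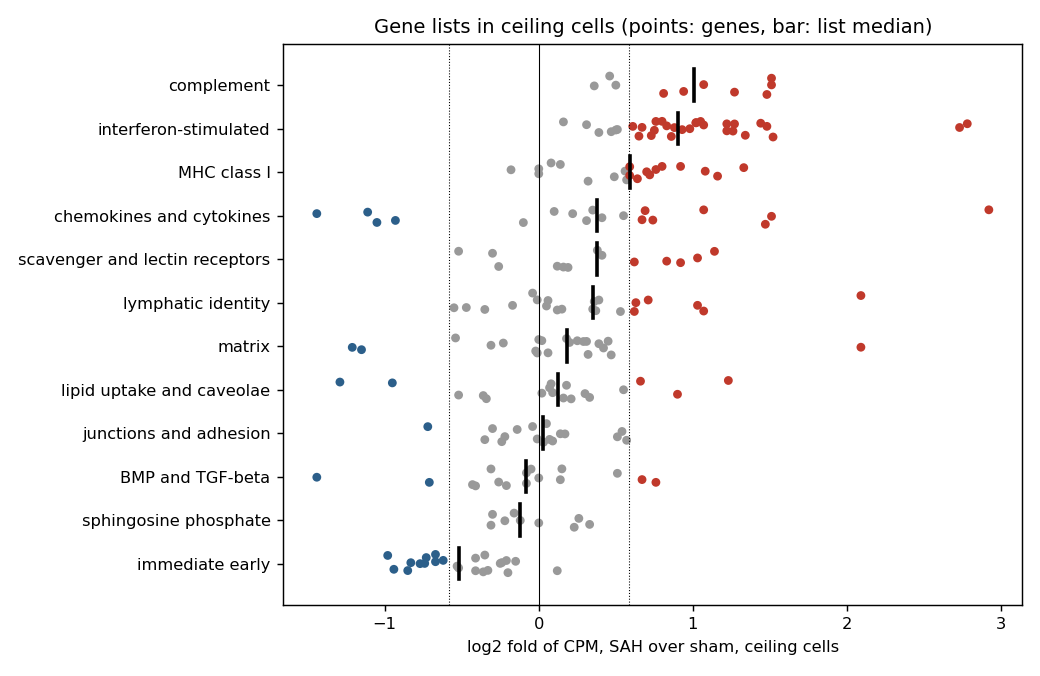
Log2 fold of SAH over sham CPM in ceiling cells for the measured members of 12 gene lists (points: genes, black bar: list median, dotted lines: 1.5-fold, red and blue: past 1.5-fold higher and lower). The medians of complement, interferon-stimulated and MHC class I genes lie at 1.00, 0.90 and 0.59, and that of immediate early genes at -0.52.

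Immediate early genes respond to stimuli within minutes, and enzymatic digestion of tissue also induces them. They were lower in SAH ceiling cells, with a median log2 fold of -0.52, and 10 of 23 measured members were past 1.5-fold lower and 0 past it higher. Jund, which encodes a Jun family partner of Fos proteins, stood at 786 CPM in SAH and 1547 CPM in sham cells (0.508-fold [0.490, 0.526]), Klf2, a transcription factor that responds to fluid shear, at 867 and 1559 CPM (0.556-fold [0.538, 0.575]), and Cyr61, a matricellular protein, at 818 and 1449 CPM (0.564-fold [0.545, 0.584]). Fos itself was 0.754-fold [0.736, 0.773] and Jun 0.873-fold [0.851, 0.896], inside the 1.5-fold limit, and Atf3 was 1.09-fold [0.956, 1.24]. After thinning, the list summed to a median of 22 UMIs in SAH and 36 UMIs in sham ceiling cells, and 76.4% of sham cells reached the SAH median. The share of mitochondrial UMIs was lower too, as given above, and the 13 genes of the mitochondrial genome had a median log2 fold of -0.28. Heat shock genes, a further sign of dissociation stress, had a median of -0.16, with 0 of 11 higher and 1 lower by 1.5-fold. The part of cell handling in the immediate early difference was not tested. After thinning, the immediate early list summed to medians of 19 and 27 UMIs per SAH and sham floor cell. In Marco-type cells the medians were 25 and 36 UMIs. The median log2 fold of the list was -0.23 in floor and -0.40 in Marco-type cells.

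Of 21 measured genes of lymphatic identity besides Prox1, 6 were at least 1.5-fold higher in SAH ceiling cells and 0 lower, with a median log2 fold of 0.35 (0.20 with the rule applied to thinned counts). Flt4, the receptor of VEGF-C, stood at 319 CPM in SAH and 222 CPM in sham cells (1.44-fold [1.34, 1.55]), Tie1, a receptor-like tyrosine kinase, at 233 and 151 CPM (1.55-fold [1.42, 1.68]), and Mmrn1, a matrix glycoprotein of lymphatic vessels, at 1855 and 1419 CPM (1.31-fold [1.27, 1.34]). Among transcription factors, values lay below equality for Foxc2 at 128 and 187 CPM (0.684-fold [0.623, 0.750]), Sox18 at 205 and 284 CPM (0.720-fold [0.669, 0.775]) and Nr2f2 at 491 and 554 CPM (0.886-fold [0.843, 0.931]), and Cldn5, a tight junction protein, was 1.04-fold [1.01, 1.06]. Of the scavenger and lectin receptors, 5 of 13 were at least 1.5-fold higher and 0 lower, with a median of 0.38. Stab1, which takes up modified proteins, stood at 648 CPM in SAH and 422 CPM in sham cells (1.54-fold [1.46, 1.61]) and Msr1 at 190 and 100.0 CPM (1.89-fold [1.71, 2.09]), while Stab2 was 1.09-fold [1.04, 1.14]. The median of this list was 0.18 when at least 2 UMIs of Ackr4 were required. Markers of Marco or Ptx3 type sinus cells, which share Stab2 and Msr1 with it, summed to 1127 CPM in SAH and 837 CPM in sham ceiling cells. Of 6 measured, 3 were at least 1.5-fold higher and 0 lower, with a median of 0.62, or 0.16 under the same requirement, and their part in the result was not tested.

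Some of these genes mark other sinus cells. Lyve1, a hyaluronan receptor, stood at 298 CPM in SAH and 146 CPM in sham ceiling cells (2.04-fold [1.88, 2.21]), with 10 cells holding 27.8% and 38.6% of its UMIs. Marco-type cells had 4470 and 2779 CPM of it in the SAH and sham libraries. Itga2b, an integrin chain of platelets that sinus endothelium also carries, stood at 153 CPM in SAH and 25.0 CPM in sham ceiling cells (6.12-fold [5.15, 7.31]), against 624 and 257 CPM in floor and 1145 and 591 CPM in Marco-type cells. With at least 2 UMIs of Ackr4 required, Itga2b stood at 138 CPM in SAH and 20.9 CPM in sham cells and Lyve1 at 208 and 133 CPM. Itga2b had a UMI in 21.5% [18.6, 24.7] of thinned SAH and 5.07% [3.71, 6.75] of thinned sham ceiling cells, against 3.78% and 1.45% in blood endothelium; unthinned these were 48.6% and 11.5% in ceiling and 9.24% and 3.79% in blood endothelium. Whether cells of other sinuses among the members add to these 2 genes was not tested.

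Chemokines of ceiling cells were few and uneven. Of 18 measured chemokines and cytokines 7 were at least 1.5-fold higher in the SAH library and 4 lower, around a median log2 fold of 0.38. Ccl21a, which guides dendritic cells and T cells, stood at 522 CPM in SAH and 249 CPM in sham ceiling cells (2.10-fold [1.97, 2.23]), but fibroblastic barcodes had 18242 and 12100 CPM, so the ceiling level was 2.86% and 2.06% of theirs. Ccl21a has near-identical copies that can share its UMIs. Cxcl10, a ligand of CXCR3, stood at 186 and 115 CPM (1.61-fold [1.47, 1.78]), with 66.3% of SAH and 77.9% of sham UMIs in 10 cells. Ccl2, which attracts monocytes, was lower, at 23.6 and 51.1 CPM (0.462-fold [0.376, 0.564]), again with 70.6% and 53.0% of UMIs in 10 cells. Of the atypical receptors, Ackr2, a scavenger of inflammatory chemokines, was 1.19-fold [1.05, 1.36], and Ackr3 stood at 161 CPM in SAH and 329 CPM in sham cells (0.490-fold [0.454, 0.529]). Markers of fibroblastic stroma summed to 1342 CPM in SAH and 822 CPM in sham ceiling cells, with 6 of 11 measured members at least 1.5-fold higher. Blood endothelial markers outside the rule summed to 1288 and 991 CPM, with 3 of 9 higher and 1 lower. B-cell markers summed to 1.98 and 11.8 CPM, T- or NK-cell markers to 1.98 and 1.63 CPM and myeloid markers to 29.2 and 8.16 CPM, and Cd8a and Adgre1 were at 0 UMIs in both libraries.

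Ligands and matrix proteins that bear on TGF-beta and adhesion stood among the 15 lowest genes. Tgfb2, a TGF-beta ligand, was lowest by the naming rule, at 33.2 CPM in SAH and 90.1 CPM in sham ceiling cells (0.368-fold [0.312, 0.433]). Fn1, which encodes fibronectin, stood at 175 and 405 CPM (0.432-fold [0.402, 0.465]), and Thbs1, which encodes thrombospondin, a ligand of CD36, at 208 and 461 CPM (0.451-fold [0.422, 0.482]). Fn1 and Thbs1 were lower in other groups too. In floor, Marco-type and fibroblastic cells the log2 folds were -1.65, -1.31 and -0.94 for Fn1 and -2.20, -2.75 and -1.92 for Thbs1. In blood endothelium they were -0.46 and -0.73, and in leukocyte barcodes 0.88 and 0.08. Tgfb2 had -1.42 in fibroblastic cells and -0.24 in blood endothelium, and stood at 7.99 CPM or less in floor and Marco-type cells. The matrix list as a whole did not follow Fn1 and Thbs1. Of 21 measured matrix genes 1 was at least 1.5-fold higher and 2 lower, with a median of 0.18, and basement membrane genes such as Col4a1 (1.24-fold [1.18, 1.30]) and Lama4 (1.24-fold [1.17, 1.32]) lay slightly over equality. Reln, the member that was higher, stood at 26.7 and 6.2 CPM (4.31-fold [3.01, 6.31]). In the list of BMP and TGF-beta genes 2 of 16 were higher and 2 lower, with a median of -0.08. Eng, a co-receptor of that family, stood at 310 CPM in SAH and 183 CPM in sham cells (1.69-fold [1.57, 1.82]) and Tgfb1 at 120 and 75.4 CPM (1.59-fold [1.42, 1.79]), whereas Id3, a target of BMP signalling, stood at 132 and 217 CPM (0.609-fold [0.557, 0.666]). Bmp4 was 1.00-fold [0.894, 1.12], at 102 CPM in each library.

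Several genes that set the ceiling apart from floor and Marco-type cells were among the lower ones. Dkk2 stood at 78.7 CPM in SAH and 154 CPM in sham ceiling cells (0.510-fold [0.456, 0.569]), Ackr3 at the values above, and Prss23 at 0.593-fold [0.570, 0.617] of its sham level. Gdf10 was 0.744-fold [0.713, 0.776] and Mfsd4 lower by a log2 fold of -0.47. The other leading genes lay between log2 folds of -0.27 for Cdh13 and 0.37 for Btnl9, so the ceiling set did not move one way. Ackr3 and Dkk2 were also lower outside the ceiling. Ackr3 had log2 folds of -1.06 in blood endothelium and -1.14 in fibroblastic cells. Dkk2, at 14.6 CPM or less there, had -1.06 and -0.74. Prss23 stood at 296 CPM in SAH and 266 CPM in sham blood endothelium, and at 40.1 and 94 CPM in fibroblastic cells.

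Lists that bear on barrier and egress lay near the background. Of 18 measured junction and adhesion genes 0 were at least 1.5-fold higher and 1 lower, with a median of 0.03, and of 9 sphingosine phosphate genes 0 were past 1.5-fold, with a median of -0.12. Spns2, which exports sphingosine phosphate into lymph, was 0.804-fold [0.752, 0.860]. Genes that handle haem, iron and oxidative stress had a median of -0.03, with 1 of 15 higher and 0 lower; Hmox1, the inducible haem oxygenase, stood at 15.5 CPM in SAH and 22 CPM in sham cells (0.704-fold [0.535, 0.922]). Lymphangiogenic signalling had a median of 0.15, with 1 of 15 higher, and NF-kB genes one of 0.02, with 2 of 18 higher and 2 lower. Lipid uptake and caveolae genes had a median of 0.13, with 3 of 18 higher and 2 lower. Fabp5, a fatty acid carrier, was among the lower ones, at 63.0 CPM in SAH and 154 CPM in sham cells (0.409-fold [0.362, 0.461]), while Cd36 and Fabp4 were 1.12-fold [1.08, 1.15] and 1.05-fold [1.03, 1.07]. Lymphotoxin and RANK genes had a median of 0.25, with 1 of 9 higher, glucocorticoid response genes one of -0.26, with 3 of 11 higher and 2 lower, and MHC class II genes one of -0.27, with 1 of 5 higher and 2 lower. Cell cycle genes had a median of 0.35, with 4 of 12 higher and 1 lower; the 4, Mki67, Top2a, Birc5 and Ube2c, had at least 92.6% of their SAH UMIs in 10 cells. Medians of the junction, haem, lymphangiogenic, NF-kB, MHC class II and cell cycle lists, and those of atypical receptors, ceiling markers and fibroblastic markers, changed sign under at least 1 other choice of cells.

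By the rule of size, the 15 highest genes had log2 folds from 1.28 to 3.36 and the 15 lowest from -1.44 to -0.94. Besides the genes above, Lcn2, an iron-binding acute phase protein, stood at 390 CPM in SAH and 119 CPM in sham ceiling cells (3.28-fold [3.02, 3.57]). Xdh, which encodes xanthine oxidoreductase, stood at 66.6 and 22.7 CPM (2.94-fold [2.42, 3.59]) and Ly6e, an interferon-induced surface protein, at 2047 and 832 CPM (2.46-fold [2.38, 2.54]). Lgals3bp, a secreted glycoprotein, was 2.43-fold [2.21, 2.68] and Aebp1, a matrix-associated protein, 2.64-fold [2.39, 2.91]. Ccdc85b stood at 64.7 and 6.2 CPM (10.4-fold [7.46, 15.0]) and Gstp1, a glutathione transferase, at 65.6 and 14.5 CPM (4.52-fold [3.58, 5.75]). Ccdc85b and Gstp1 had log2 folds of 2.99 and 2.03 in blood endothelium and 3.14 and 2.08 in fibroblastic cells, so both differed between the libraries in each of these cell groups. Trim37, a ubiquitin ligase, had a log2 fold of 2.08 in ceiling cells, 2.22 in blood endothelium and 0.62 in fibroblastic cells. Gstp1 has a near-identical copy and its value is uncertain. Among the lower genes, Cebpb, a transcription factor of inflammatory genes, stood at 258 CPM in SAH and 504 CPM in sham cells (0.513-fold [0.482, 0.545]), Akap12, a scaffold of kinases, at 31.2 and 80.0 CPM (0.390-fold [0.328, 0.462]), and Ptn, a heparin-binding growth factor, at 26.7 and 57.3 CPM (0.466-fold [0.385, 0.563]). The log2 fold of Ptn was -1.10, and -0.12 without the limits on Marco, Madcam1 plus Coch and Igfbp5, so its difference rests on that choice of cells. That of Akap12 was -1.36, and -0.75 with the rule applied to thinned counts. Hypk, Lmcd1 and Rhob were also lower, at 0.428-fold [0.374, 0.489], 0.494-fold [0.447, 0.546] and 0.522-fold [0.471, 0.578]. Other named genes differed in blood endothelium and fibroblastic cells too. Log2 folds there were -1.29 and -1.24 for Hypk and -1.04 and -1.58 for Cebpb. They were 3.05 and 3.37 for Lcn2 and 1.19 and 1.79 for Lgals3bp. In blood endothelium Lmcd1 and Akap12 had smaller ones, of -0.23 and -0.42.

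**Figure D5:**
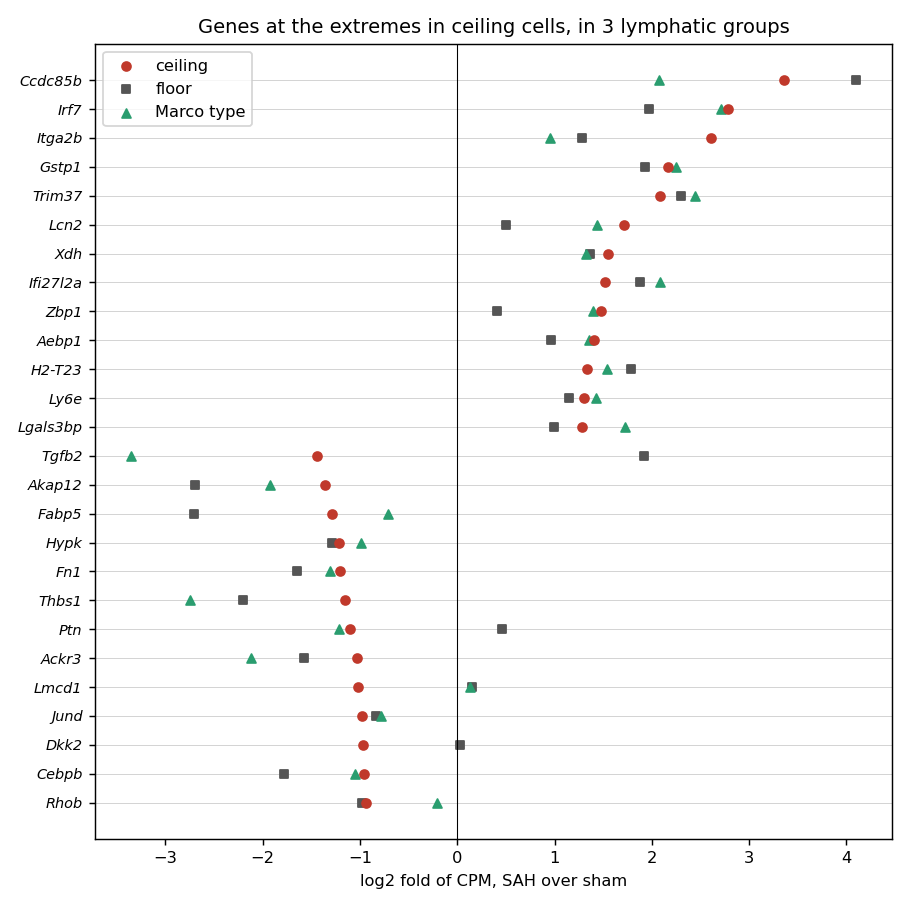
Log2 fold of SAH over sham CPM for genes among the 15 highest and 15 lowest of ceiling cells (red circles), with the same gene in floor (grey squares) and Marco-type cells (green triangles). Irf7 lies at 2.78 in ceiling, 1.97 in floor and 2.71 in Marco-type cells, and Ptn at -1.10, 0.46 and -1.22. Points of Dkk2 and Lmcd1 in floor cells, of Ackr3 in Marco-type cells and of Tgfb2 in both groups rest on levels of 7.99 CPM or less. Dkk2, at 0 in sham Marco-type cells, has no point there.

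Genes that stood over 10 times higher in blood endothelial, fibroblastic or leukocyte barcodes of a library were kept apart from the highest and lowest named genes as possible free RNA. The gene lists were not filtered this way. List members that pass the same limit and count in the results above include C3, C4b, Ccl19, Ccl21a, Cxcl9 and Cxcl12. Cxcl12 stood at 318 CPM in SAH and 190 CPM in sham ceiling cells, and at 6307 and 6974 CPM in fibroblastic cells. The part of free RNA in the list counts was not tested. Of the genes kept apart, the 3 with the largest fold were Saa3, an acute phase protein, at 191 CPM in SAH and 1.31 CPM in sham ceiling cells (146-fold [73.9, 339]), Hist1h2ap, a histone gene, at 59.2 and 2.77 CPM (21.3-fold [13.1, 37.0]), and Cxcl9, a ligand of CXCR3, at 52.4 and 6.85 CPM (7.65-fold [5.53, 10.8]). In the SAH library 10 cells held 79.1%, 88.6% and 75.5% of their UMIs. Saa3 stood at 3682 CPM in SAH and 210 CPM in sham fibroblastic cells.

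Ceiling cells also varied among themselves. Of 2952 genes with a mean of at least 0.1 UMI per thinned cell in both libraries, the 15 that varied most in both, beyond counting noise, fell into a few kinds. Lyve1 was at 0 in 82.4% of SAH and 90.3% of sham cells but reached 16 and 12 UMIs in single cells. Nts, the peptide neurotensin, was at 0 in 83.7% and 83.8% and reached 24 and 32 UMIs, at 200 CPM in SAH and 314 CPM in sham ceiling cells against 60.7 and 97.8 CPM in Marco-type cells and under 25 CPM in floor cells, blood endothelium and fibroblastic cells. Adm, the vessel peptide adrenomedullin, at 0 in 88.8% and 86.4%, and Edn1, the vasoconstrictor endothelin, at 0 in 91.5% and 87.1%, were likewise carried by few cells. Cxcl10, at 0 in 89.9% and 94.4%, reached 57 and 32 UMIs. Dcn, Cxcl12 and Ccl21a of fibroblastic cells, Glycam1 of floor and blood endothelium, Postn of floor cells, and the salivary genes Bpifa2 and Smr3a were variable too and stood higher in another cell group of both libraries. The remaining 3 were S100a6, Fabp5 and Lcn2, which also stood higher in another cell group of both libraries. S100a6 stood at 1478 CPM in SAH and 1778 CPM in sham fibroblastic cells. Lcn2 stood at 1213 and 855 CPM in floor cells and Fabp5 at 168 and 244 CPM in blood endothelium. Lyve1 and Cxcl10 stood higher in Marco-type cells, at 4470 and 2779 CPM and at 635 and 537 CPM.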

How the data were processed

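The deposited values were raw UMI counts per gene and barcode, 1 matrix per library, made by the authors with Cell Ranger 5.0, STAR and the mm10 build, per the submitters' processing notes, which also name Seurat 3.0.2. RNA was tagged at the start of each cDNA on a 10x Chromium, per the labels' protocols. The lowest barcode held 501 UMIs in the SAH and 502 UMIs in the sham library, so neither matrix holds shallower barcodes. Of 13766 SAH and 13952 sham barcodes, 623 and 774 were left out for under 500 genes and 2071 and 2458 for over 10% mitochondrial UMIs.

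Members, gene lists and alternatives were chosen with earlier results of these data known. Counts were summed over cells of a group in a library and scaled to CPM. Folds carry exact conditional binomial intervals and shares exact Clopper-Pearson intervals, at 95%, and the interval of a difference of shares combines those of both shares in quadrature; UMIs of 1 library are not replicates, so intervals cover counting error only. A gene counted as higher or lower at 1.5-fold, with 50 CPM in 1 library over all genes and 10 CPM in lists. Genes were named as the 15 highest and 15 lowest folds among genes that reached 50 CPM in either library and kept their sign in the mean of per-cell CPM, ranked after adding 0.5 UMI, without haemoglobin, immunoglobulin, ribosomal protein, mitochondrial and T-cell receptor genes, predicted genes, Xist and genes of the Y chromosome; as the 15 leading and the 15 most variable genes; or as list members and markers. Genes over 10 times higher in another cell group were kept apart from the highest and lowest genes, with 3 named, but stayed in the gene lists. Doublets were predicted with Scrublet in scanpy 1.11.5 (876 SAH and 729 sham barcodes) and removed only in an alternative. TMM scaling came from edgeR 4.0.16 in R 4.3.3. The remaining steps ran in Python 3.11.15 with numpy 2.4.6, scipy 1.17.1 and pandas 2.3.3, and the fold intervals were tested on simulated data. Coordinates are from the GENCODE annotation of mm10 (70 of 71 names matched), promoters from RefSeq. Mx2 and 8 other list symbols are not analysed here. A few genes that met the naming rule or belong to the lists are not reported here by name; list counts and medians include them.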

Additional observations from a re-analysis of the deposited data

Results flagged for a closer look

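For 4 chemokine genes, of a list with 18 measured members, the SAH library was higher in ceiling cells and lower in floor cells. This difference in direction was not tested, and the share of all genes that differ so is not given here. Ccl19, a ligand of CCR7, had a log2 fold of 1.51 in ceiling cells (65.3 CPM in SAH, 22.8 CPM in sham) and -0.86 in floor cells (40.1 and 72.8 CPM). Ccl21a had 1.07 in ceiling cells (522 and 249 CPM) and -0.66 in floor cells (341 and 538 CPM). Cxcl10 had 0.69 in ceiling cells (186 and 115 CPM) and -1.56 in floor cells (228 and 672 CPM). Cxcl9 had 2.92 in ceiling cells (52.4 and 6.85 CPM) and -1.69 in floor cells (185 and 598 CPM). Among ceiling cells, 10 cells held 66.3% of SAH and 77.9% of sham Cxcl10 UMIs. For Cxcl9, with 318 and 42 UMIs, these were 75.5% and 73.8%, so both ceiling values rest on few cells. Fibroblastic cells held 2766 CPM of Ccl19 in the SAH and 2200 CPM in the sham library, and the ceiling level was 2.36% and 1.04% of that. The part of free RNA in these values was not tested.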

How the results depend on the processing

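No paired analysis was possible because each group was 1 library. The interferon, MHC class I, complement and immediate early medians kept their sign under every alternative run. Of these 4, interferon was 1.05 and complement 0.87 without the limits on Marco, Madcam1 plus Coch and Igfbp5, and complement was 1.22 with the rule on counts thinned to 3000 UMIs and 1.12 as mean of per-cell CPM. The share difference was -2.4 points without those 3 limits. Genes higher and lower in the SAH library were 606 and 274 at 10 CPM and 134 and 51 at 100 CPM; at 50 CPM they were 195 and 108 with TMM scaling. The difference in cells with a UMI of Irf7 was 35.1 points at 2000 and 45.4 points at 4000 UMIs. List medians that changed sign without the 3 limits were lymphangiogenic -0.07, fibroblastic -0.05, cell cycle -0.12, NF-kB -0.03, ceiling markers -0.05 and haem 0.02. With the thinned rule these were MHC class II 0.29, cell cycle -0.28, haem 0.20 and junctions -0.04, and atypical receptors came to 0.00. With at least 1000 genes and at most 5% mitochondrial UMIs they were atypical receptors 0.18, MHC class II 0.12, NF-kB -0.01, ceiling markers -0.04 and haem 0.02. MHC class II was 0.12 with doublets removed, and lymphangiogenic was -0.04 and haem 0.02 with 2 UMIs of Ackr4. NF-kB and ceiling markers were both -0.01 with TMM scaling, and haem was 0.10 and junctions -0.01 as mean of per-cell CPM. Marco or Ptx3 type markers moved to 0.16 with 2 UMIs of Ackr4, against 0.62, and chemokines to 0.60 with the thinned rule, against 0.38. The cause of these changes was not tested. None of the 33 named genes tried changed sign, but some log2 folds moved far. Without the 3 limits Ptn was -0.12, against -1.10, Cxcl9 1.5, against 2.92, and Hist1h2ap 3.43, against 4.38. With the thinned rule Tgfb2 was -0.91, against -1.44, Akap12 -0.75, against -1.36, Cxcl9 3.83 and Saa3 5.28, against 7.10. Leaving out the 10 members with the most UMIs per library, chosen after seeing the data, changed the sign of the haem median (0.03) and of no other result. Depth limits genes of few UMIs, whose intervals are wide.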

Other observations

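Haemoglobin RNA stood out in the SAH library but sat in few ceiling cells. Hbb-bs, an adult beta globin, had 3128 UMIs in SAH and 37 UMIs in sham ceiling cells, of which 98.1% and 29.7% were in 10 cells and 58.5% and 5.41% in 1 cell. Hba-a1, an alpha globin whose near-identical copy makes its value uncertain, had 733 and 25 UMIs, with 98.4% and 100% in 10 cells. Neither entered a gene list, and the genes named here were chosen after their values were seen.

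Mt1, a metallothionein that binds zinc and copper and responds to glucocorticoids, stood at 59.7 CPM in SAH and 24.5 CPM in sham ceiling cells (2.44-fold [2.01, 2.97]). Glucocorticoid response genes as a list had a median log2 fold of -0.26. They summed to 1513 CPM in SAH and 2135 CPM in sham ceiling cells. Of 11 measured genes, 3 passed the 1.5-fold limit upward and 2 downward, so Mt1 is a single example and does not describe that list. Among ribosomal protein genes, left out of the naming rule, Rpl38 stood at 2044 and 1058 CPM (1.93-fold [1.88, 1.99]) and Rps29 at 4106 and 2485 CPM. Rpl38 and Rps29 are single examples. How many ribosomal protein genes were higher or lower is not given here, so these values do not describe the family.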
